A study of Mus musculus with 2 samples.

Results

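Kupffer cells, the macrophages that reside in the liver sinusoids, were described in single-cell libraries of livers from mice on a diet that promotes steatohepatitis. A barcode was taken as a Kupffer cell when it held at least 3000 unique molecular identifiers (UMIs, each marking 1 captured RNA molecule), at most 25% of them mitochondrial, at least 10 UMIs of C1qa, C1qb and C1qc together, at least 2 UMIs of Clec4f and Timd4 together, and no UMI of Cd3e or Cd79a. This rule kept 683 of 32316 barcodes. Barcodes ended in the suffix 1 or 2, one for each of the joined libraries, and 258 Kupffer cells carried suffix 1 and 425 carried suffix 2. The rule read the expression of its own genes, so their levels, and every contrast of these cells with other barcodes, describe what was chosen.

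Kupffer cells stand in the blood flow of the liver and clear bacteria, dying cells and worn-out red cells from it. They are seeded before birth and renew themselves, and monocytes from the blood can replace them after loss. CLEC4F, a lectin that in mice is largely restricted to Kupffer cells, and TIM4, a phosphatidylserine receptor encoded by Timd4, are used to tell them from other macrophages, and monocyte-derived replacements gain TIM4 late.

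One liver sample was labelled Cebp KO and the other Cebp WT, and both came from mice given HFCFD (40% per the labels, high in fat, cholesterol and fructose) for 2 weeks. The study's methods describe the knockout as Cebpa fl/fl mice carrying Cre under the Albumin promoter, which is active in hepatocytes, on a C57BL/6N background and in males only. The sources used here do not state which form of Cre these mice carried, or whether a sample held 1 liver or several. Cells were freed by digestion of the perfused liver, purified on Percoll, and each sample was run on its own 10x Genomics 3' v3.1 lane. No label says which suffix belongs to which sample, so the libraries are called suffix 1 and suffix 2, no genotype was read from their values, and knockout was not compared with wild type.

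The suffix 1 library held 17313 barcodes and 60048646 UMIs, and the suffix 2 library 15003 barcodes and 52355243 UMIs. Mitochondrial UMIs made up a median of 4.07% of a suffix 1 barcode and 41.3% of a suffix 2 barcode. The filters on depth and mitochondrial share left 2977 and 2538 barcodes, of which Kupffer cells were 8.67% (95% interval 7.68% to 9.73%) and 16.7% (15.3% to 18.3%). These are shares of barcodes after digestion, gradient and filters, not of cells in the liver. A Kupffer cell held a median of 10463 UMIs (3055 to 38157) and 3682.5 genes with suffix 1, and a median of 7774 UMIs (3014 to 40186) and 3029 genes with suffix 2. With 1 library of each kind there was no replicate and no test. Levels are UMIs summed over cells per 1000000 UMIs (CPM), and the 95% intervals, exact Poisson for levels and exact binomial for shares, cover counting error only.

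The edges of the rule held few barcodes. Inside it, 7 Kupffer cells with suffix 1 and 16 with suffix 2 had a C1q sum of 10 to 14 UMIs, and 5 and 6 had a Clec4f and Timd4 sum of 2 or 3. Just outside, 1 and 8 barcodes met the rest of the rule with a C1q sum of 5 to 9, and 0 and 3 with 1 UMI of Clec4f and Timd4. A further 17 and 14 barcodes had the C1q genes but no UMI of Clec4f or Timd4, and these are called C1q macrophages. The other classes set beside Kupffer cells were chosen by UMIs of a few marker genes and were monocyte-like (42 and 57 barcodes), endothelial-like (109 and 120), lymphocyte-like (536 and 402) and hepatocyte-like (987 and 786). The same barcode sequence occurred in both libraries 81 times, which touched 2 and 6 Kupffer cells, and no sequence was a Kupffer cell in both.

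The promoters of the genes that define these cells are printed because most Kupffer cells held UMIs of these genes together, apart from Marco, which a minority held. They run from 250 bases before to 50 bases after the start used for each gene, 5' to 3' on the gene's strand. They come from RefSeq for GRCm38.p6. For C1qc and Timd4 that start lies within the RefSeq span of the gene, so distances depend on the start chosen. GENCODE M21 puts the start of C1qc at chr4:136893065. C1qb (chr4:136886151-136886450, minus strand), C1qc (chr4:136892865-136893164, minus strand) and C1qa lie side by side on chromosome 4. The Clec4f promoter is chr6:83656067-83656366 (minus strand), that of Timd4 chr11:46810549-46810848 (plus strand), that of Vsig4 chrX:96293389-96293688 (minus strand), that of Cd5l chr3:87357631-87357930 (plus strand) and that of Marco chr1:120504975-120505274 (minus strand). Capitals mark matches, on either strand, to the PU box GAGGAA bound by PU.1, to the C/EBP motif TTGCNNAA and to the MAF motif TGCTGAC.
C1qb: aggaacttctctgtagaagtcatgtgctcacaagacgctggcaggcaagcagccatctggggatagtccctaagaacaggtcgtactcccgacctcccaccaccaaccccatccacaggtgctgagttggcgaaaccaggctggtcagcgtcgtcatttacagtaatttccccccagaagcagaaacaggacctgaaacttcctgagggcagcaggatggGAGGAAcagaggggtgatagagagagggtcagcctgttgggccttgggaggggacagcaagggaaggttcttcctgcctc
C1qc: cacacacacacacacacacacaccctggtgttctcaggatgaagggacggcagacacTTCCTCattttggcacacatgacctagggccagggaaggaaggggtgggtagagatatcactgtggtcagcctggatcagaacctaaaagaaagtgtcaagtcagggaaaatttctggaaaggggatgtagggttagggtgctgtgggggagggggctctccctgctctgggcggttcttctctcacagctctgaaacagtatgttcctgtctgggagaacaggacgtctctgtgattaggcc
Clec4f: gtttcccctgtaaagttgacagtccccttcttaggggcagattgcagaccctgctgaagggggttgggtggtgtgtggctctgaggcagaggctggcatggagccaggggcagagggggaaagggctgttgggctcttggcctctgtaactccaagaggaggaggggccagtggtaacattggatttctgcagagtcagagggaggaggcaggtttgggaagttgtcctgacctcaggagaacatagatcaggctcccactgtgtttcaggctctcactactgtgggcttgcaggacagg
Timd4: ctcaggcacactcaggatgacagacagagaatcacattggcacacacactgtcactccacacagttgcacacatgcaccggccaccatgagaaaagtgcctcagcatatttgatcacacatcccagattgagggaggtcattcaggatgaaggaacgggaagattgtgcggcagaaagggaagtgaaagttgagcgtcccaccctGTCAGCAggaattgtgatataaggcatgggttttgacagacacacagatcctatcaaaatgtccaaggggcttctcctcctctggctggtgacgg
Vsig4: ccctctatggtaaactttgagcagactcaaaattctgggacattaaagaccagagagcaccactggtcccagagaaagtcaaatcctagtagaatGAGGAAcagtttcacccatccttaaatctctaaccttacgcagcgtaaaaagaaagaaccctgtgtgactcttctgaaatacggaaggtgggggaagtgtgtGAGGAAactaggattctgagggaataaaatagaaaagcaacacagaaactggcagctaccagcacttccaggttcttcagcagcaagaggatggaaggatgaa
Cd5l: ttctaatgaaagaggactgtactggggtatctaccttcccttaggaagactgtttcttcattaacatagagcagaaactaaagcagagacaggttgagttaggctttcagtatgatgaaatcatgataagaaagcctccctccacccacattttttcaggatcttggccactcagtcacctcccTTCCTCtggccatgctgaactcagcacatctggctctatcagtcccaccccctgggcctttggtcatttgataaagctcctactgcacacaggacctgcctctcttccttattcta
Marco: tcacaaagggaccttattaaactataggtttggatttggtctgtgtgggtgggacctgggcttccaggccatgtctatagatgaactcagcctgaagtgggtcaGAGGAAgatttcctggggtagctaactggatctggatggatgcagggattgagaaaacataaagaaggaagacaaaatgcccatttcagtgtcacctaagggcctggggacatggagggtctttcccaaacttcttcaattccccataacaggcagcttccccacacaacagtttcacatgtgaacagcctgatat
The PU box began 30 bases before the start in C1qb, 193 in C1qc, 155 and 53 in Vsig4, 66 in Cd5l and 146 in Marco. The MAF motif was found only in Timd4, 45 bases before the start, and none of the 7 promoters held the C/EBP motif. Of 32851 promoters of this length, 28.3% held the PU box, 10.8% the C/EBP motif and 4.67% the MAF motif, and no matches overlapped here. A match is a run of letters and not a binding site, and a promoter without one lacks only these letters in this window.

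The genes that mark Kupffer cells were abundant in both libraries. Clec4f was counted at 3068 CPM (3004 to 3133) in suffix 1 Kupffer cells and 2959 CPM (2904 to 3016) in suffix 2 Kupffer cells. Timd4 stood at 487 CPM (462 to 513) and 496 CPM (473 to 519). The counting intervals of the libraries overlapped for both genes. Vsig4, a complement receptor that takes up opsonised bacteria, stood at 1831 CPM (1781 to 1881) and 1927 CPM (1882 to 1973), where the intervals just failed to overlap. Cd5l, which encodes a secreted scavenger-family protein also named AIM, stood at 4624 CPM (4545 to 4703) and 5319 CPM (5245 to 5395), a log2 ratio of suffix 1 to suffix 2 of -0.20. Folr2, a folate receptor of resident macrophages, stood at 587 and 589.8 CPM, with overlapping intervals.

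Single Kupffer cells spread around these sums. The middle 50% of cells ran from 2101 to 4034 CPM for Clec4f with suffix 1 and from 2116 to 3740 CPM with suffix 2. For C1qa the same range was 1965 to 3528 CPM and 1958 to 3538 CPM, and for Vsig4 it was 1291 to 2481 CPM and 1441 to 2626 CPM. The distributions of the libraries lay on top of each other for these genes. No UMI of Clec4f was found in 2 and 1 Kupffer cells, which entered through Timd4, and none of Vsig4 in 1 and 4. Cd163, the receptor for haemoglobin bound to haptoglobin, was wider, with 78 of 258 and 144 of 425 cells at 0 and medians of 326 and 248 CPM.

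**Figure D1:**
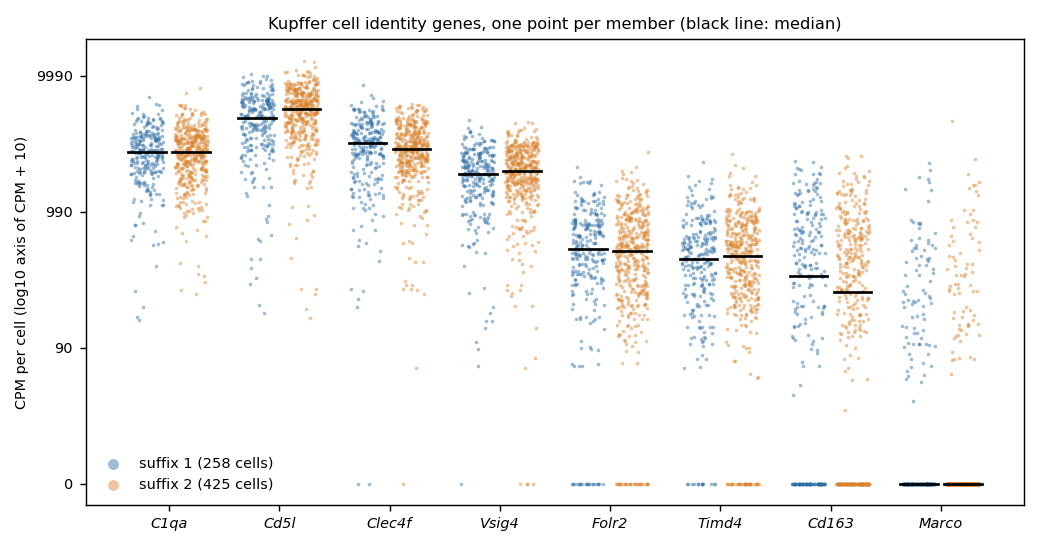
Level of 8 genes in each Kupffer cell, in CPM on a log10 axis of CPM + 10, with 258 cells of suffix 1 in blue and 425 of suffix 2 in orange and the median as a black line. C1qa, Cd5l, Clec4f and Vsig4 form a band with few cells at 0, while 170 and 347 cells have no UMI of Marco.

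Across cells, levels scaled to each cell's UMIs went together for the identity genes. Over 258 and 425 cells, Pearson's r was 0.54 and 0.43 for Clec4f with Vsig4, 0.56 and 0.51 for Clec4f with C1qa, and 0.26 and 0.13 for Clec4f with Timd4. Spearman's rho for the same pairs was 0.55 and 0.42, 0.60 and 0.48, and 0.30 and 0.19. These cells share a library, their depth and the RNA of other cells mixed into them, so the values are a description.

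The C1q genes encode the chains of the first component of complement, which tags dying cells and immune complexes for uptake. In Kupffer cells C1qa gave 40.3% (39.6% to 41.1%) and 38.5% (37.9% to 39.1%) of C1q UMIs, C1qb 28.0% (27.3% to 28.6%) and 30.1% (29.6% to 30.7%), and C1qc 31.7% (31.0% to 32.4%) and 31.3% (30.8% to 31.9%). In the C1q macrophages the order was different, with C1qb at 41.3% (38.7% to 44.0%) and 41.3% (38.1% to 44.5%). Thus C1qb per C1qa was 0.693 and 0.783 in Kupffer cells and 1.12 and 1.22 in the macrophages without Clec4f and Timd4. The rule used the sum of the chains and not their ratio. The median over single Kupffer cells was 26.4% and 28.9% C1qb, with the middle 50% between 20.1% and 32.1% and between 22.9% and 33.8%, while over the 17 and 14 C1q macrophages the medians were 40.8% and 40.9%. The summed levels of C1qa were alike in both kinds of macrophage, 2669 and 2759 CPM in Kupffer cells against 2657 and 2792 CPM.

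Next, each gene was set against the other barcodes of its library, which numbered 2719 and 2113, with 3 UMIs added to each sum. Of 2164 genes at 100 CPM or more, 406 (18.8%) were at least 4-fold higher in Kupffer cells in both libraries, and 84 (3.88%) at least 4-fold lower. The median log2 ratio over all these genes, taking the lower of both libraries, was 0.60. Apart from the genes of the rule, the 10 largest ratios belonged to Slc16a9, Fabp7, Cd5l, Folr2, Pcolce2, Vsig4, Kcnj16, Cd163, Ksr2 and Tmem26. Slc16a9, a carnitine transporter of the monocarboxylate family, stood at 147 and 149 CPM in Kupffer cells and was 90.3-fold and 83.6-fold above the other barcodes. Fabp7, a fatty acid binding protein, stood at 477 and 525 CPM (82.4-fold and 92.1-fold). Kcnj16, an inward rectifier potassium channel, stood at 178 and 205 CPM and had 0 UMIs in the lymphocyte-like barcodes.

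The 13 tested genes of the Kupffer identity list were all among the 406, with a median log2 ratio of 6.02, and so were the 3 C1q genes (median 5.45). The lists were drawn up with results of these data known, so their counts describe the cells and are no evidence of their own. Xlr4c, also listed, had no UMI in any Kupffer cell. Part of the identity list separated Kupffer cells from the C1q macrophages as well. Cd5l stood at 1048 and 740 CPM in those macrophages and Slc40a1 at 377 and 238, well below their Kupffer levels, but Hpgd, an enzyme that breaks down prostaglandins, stood at 629 and 581 CPM there against 1115 and 1229 CPM in Kupffer cells.

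**Figure D2:**
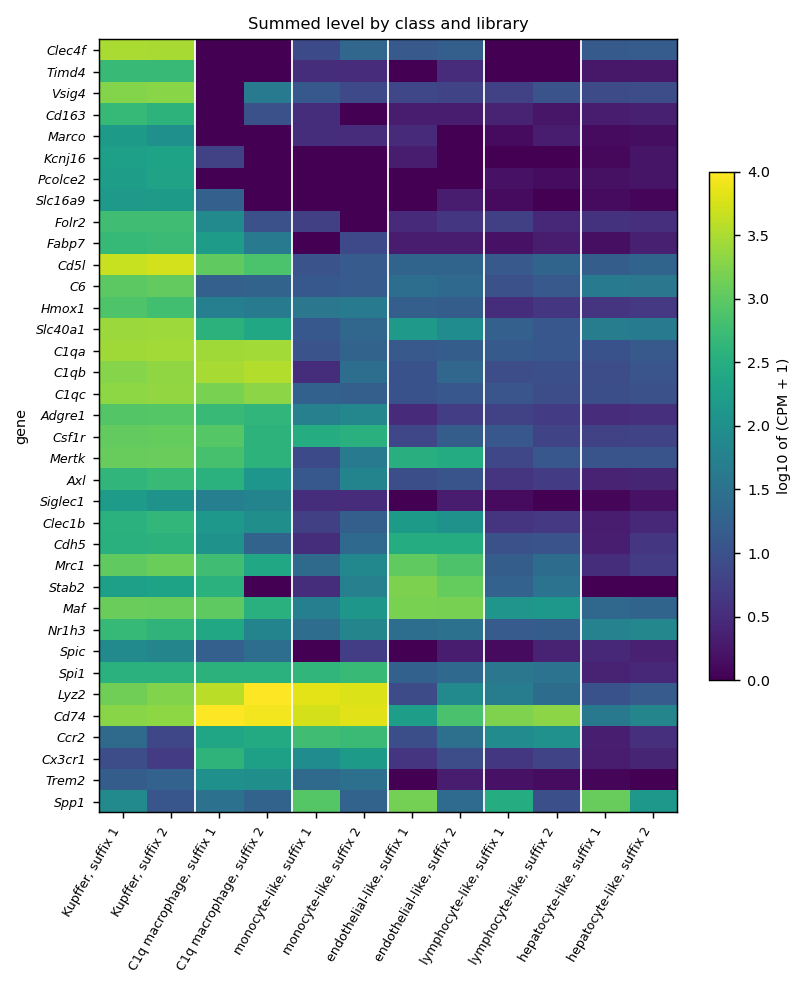
Summed level of 36 genes as log10 of (CPM + 1) in Kupffer cells and 5 marker-chosen classes of each library. Clec4f, Timd4 and Vsig4 are brightest in Kupffer cells, and C1qa to C1qc are bright in both kinds of C1q-bearing macrophage. Lyz2, Cd74 and Ccr2 are brighter in monocyte-like barcodes than in Kupffer cells.

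Genes shared by macrophages were also high. All 11 tested genes of the pan-macrophage list were at least 4-fold above the other barcodes (median log2 ratio 4.27). Adgre1, which encodes F4/80, stood at 864 and 889 CPM, Csf1r, the receptor that macrophages need to survive, at 1089.9 and 1140.4 CPM, and Mertk, a receptor for dying cells, at 1160.0 and 1235 CPM. Lyz2 went the other way between classes: at 1381 and 1749 CPM in Kupffer cells, it was far below the 6813 and 6230.4 CPM of monocyte-like barcodes. Ccr2, the receptor that brings monocytes into tissue, was at 23.3 and 6.02 CPM in Kupffer cells and at 588 and 525 CPM in monocyte-like barcodes. In Kupffer cells with fewer than 5 of 11 cell cycle genes it was at 9.65 and 6.16 CPM. Cx3cr1, of the fractalkine receptor, was at 7.75 and 4.11 CPM. Of the complement genes other than C1q, 3 of 7 tested were at least 4-fold higher (median log2 ratio 0.01), namely C6, Cfp, the gene of properdin, and C3ar1. Of 7 tested niche receptors and ligands 3 were, and of 5 genes for bridging and engulfing dying cells 2 were, against 18.8% of all tested genes.

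Of the transcription factors listed for Kupffer cells, 7 of 12 tested were at least 4-fold higher (median log2 ratio 2.65), against 18.8% of all tested genes. Nr1h3, which encodes the oxysterol receptor LXR-alpha that sets Kupffer identity, stood at 483 and 393 CPM, and Spic, a factor tied to the handling of heme, at 78.9 and 66.3 CPM. Zeb2, which holds macrophages to their tissue identity, was at 2589 and 2059 CPM, whereas Maf was at 1203 and 1172 CPM and at 1557 and 1519 CPM in endothelial-like barcodes. Spi1, the gene of PU.1, was at 357 and 353 CPM in Kupffer cells and at 436 and 492 CPM in monocyte-like barcodes.

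Receptors for uptake were high. Of 12 tested genes, 9 were at least 4-fold higher (median log2 ratio 4.30), against 18.8% of all tested genes. Mrc1, the mannose receptor, stood at 1039 and 1245 CPM, Msr1, scavenger receptor A, at 521 and 451, Axl at 436 and 487, and Siglec1, the sialoadhesin that captures particles from blood, at 154 and 107. Siglec1 was 94.2-fold and 58.2-fold above the other barcodes. Lrp1, a large endocytic receptor, stood at 587 and 601 CPM and was 5.47-fold and 6.35-fold above them. Gas6 and Mfge8, which encode proteins that bridge dying cells to such receptors, had little RNA in the same cells. Gas6 stood at 8.46 and 8.76 CPM and Mfge8 at 8.46 and 6.30 CPM, while Gas6 was at 70.8 and 50.9 CPM in endothelial-like barcodes.

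Iron and heme genes were mixed. Slc40a1, the iron exporter ferroportin, stood at 2495 and 2561 CPM and was 38.7-fold and 44.6-fold above the other barcodes. Hmox1, which opens the heme ring, stood at 800.3 and 625 CPM (51.9-fold and 55.1-fold), and Slc11a1, which moves iron out of the phagosome, at 145 and 163 CPM (47.0-fold and 28.5-fold). In all, 4 of 10 tested genes of this list (against 18.8% of all tested genes) were at least 4-fold higher. The ferritin genes were not among them, since Fth1 stood at 3448 and 4026 CPM in Kupffer cells and at 6232 and 6749 CPM in hepatocyte-like barcodes. Trf, the plasma iron carrier made by hepatocytes, stood at 1453 and 2284 CPM against 5418 and 8017 CPM in those barcodes.

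Lysosomal and lipid-handling genes were next. Of 19 tested lysosome genes, 13 were at least 4-fold higher (median log2 ratio 2.13), against 18.8% of all tested genes. Among the proteases Ctsb stood at 4453 and 4581 CPM, Ctsc at 1597 and 1477 CPM and Lgmn at 1661 and 1864 CPM, while Ctsl stood at 0.706-fold and 0.829-fold of the other barcodes. Of 11 tested genes of cholesterol handling, 6 were at least 4-fold higher (median log2 ratio 2.34). Lpl, which frees fatty acids from lipoproteins, stood at 888 and 955 CPM, Pltp, which moves phospholipids between them, at 697 and 792 CPM, and Soat1, which esterifies cholesterol for storage, at 358 and 302 CPM. Apoe was abundant at 9009 and 13510 CPM, but at 0.954-fold and 0.905-fold of the other barcodes.

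**Figure D3:**
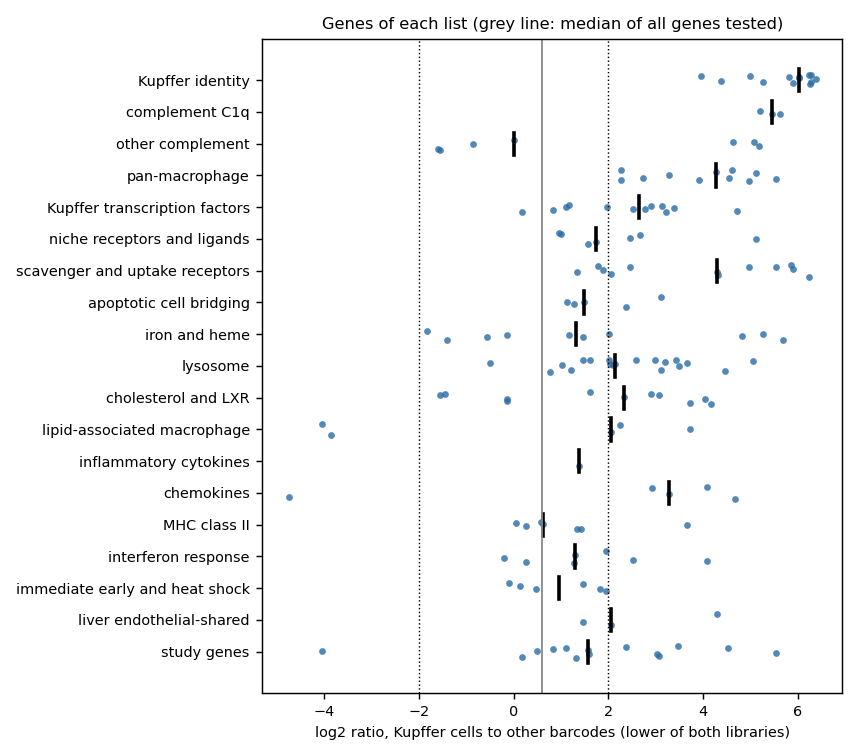
Log2 ratio of Kupffer cells to other barcodes, the lower of both libraries, for each tested gene by list, with list medians as black bars, the median of all tested genes (0.60) as a grey line and 4-fold as dotted lines. Identity, C1q and pan-macrophage genes lie far to the right, and Spp1, Lgals1 and Ccl5 lie far to the left.

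Genes of lipid-associated macrophages, a state described in fatty liver, were mostly low. Trem2 stood at 14.1 and 16.98 CPM, with a UMI in 25 and 43 Kupffer cells, against 99.6 and 96.9 CPM in the C1q macrophages. Gpnmb had no UMI in any Kupffer cell, Cd9 stood at 20.1 and 13.7 CPM, Cd63 at 8.10 and 6.30 CPM and Itgax at 12.7 and 2.19 CPM. Of the 5 genes of this list that could be tested, Lpl, Lgals3 and Cd36 were at least 4-fold higher than in other barcodes, and Spp1 and Lgals1 at least 4-fold lower. Of all tested genes 18.8% were higher and 3.88% lower by that much. Other cells carried these genes too, since Cd36 stood at 505 and 482 CPM in endothelial-like barcodes and Lgals3 at 686 and 918 CPM in monocyte-like ones.

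Inflammatory genes were sparse. Tnf was at 4.58 and 4.65 CPM, Il6 at 7.05 and 3.29 CPM, and Nos2 and Il12b had no UMI in Kupffer cells, whereas Il1b stood at 65.2 and 66.8 CPM with a UMI in 13.9% and 14.5% of Kupffer cells and 0.702% and 0.406% of lymphocyte-like barcodes thinned to 3000 UMIs (32.6% and 28.9% of Kupffer cells as counted). Only Nfkbia of this list reached 100 CPM. Of 5 tested chemokine genes and receptors 4 were at least 4-fold higher than in other barcodes, against 18.8% of all tested genes. The remaining 1, Ccl5, was lower, as were 3.88% of all tested genes. Ccl24, a ligand of eosinophils, stood at 364 and 392 CPM and Ccl6 at 518 and 508 CPM. MHC class II genes were present but below antigen-presenting neighbours, with Cd74 at 1961 and 2094 CPM in Kupffer cells, 10131 and 8438 CPM in C1q macrophages, and 5492 and 6639 CPM in monocyte-like barcodes. In Kupffer cells 1 of 7 tested genes of that list was at least 4-fold above all other barcodes, close to the 18.8% of all tested genes. Immediate early and heat shock genes, which dissociation can switch on, summed to 2733 and 2426 CPM over 19 genes in Kupffer cells, against 1694 and 1840 CPM in the other barcodes, 1245 and 1256 CPM in hepatocyte-like and 2524 and 2483 CPM in lymphocyte-like ones. Of the 6 tested genes of that list 0 were 4-fold higher, and their median log2 ratio was 0.97. Hspa8, a chaperone made in most cells, stood at 1196 and 946 CPM, Klf2 at 316 and 316 CPM and Jund at 223 and 239 CPM, while Fos was at 24.3 and 16.7 CPM and Hspa1a at 17.6 and 10.7 CPM. The part of dissociation in these levels was not tested.

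Timd4 was found in most Kupffer cells. A UMI was seen in 245 of 258 cells with suffix 1 (94.96%, 91.5% to 97.3%) and in 391 of 425 with suffix 2 (92.0%, 89.0% to 94.4%). After every Kupffer cell was thinned to 3000 UMIs, with none left out, the shares were 68.6% (62.6% to 74.2%) and 74.6% (70.2% to 78.7%). Averaged over all ways to thin, they were 72.2% and 73.2%. Free RNA in droplets can place UMIs in cells that do not make them, and the lymphocyte-like class was chosen without Clec4f and Timd4 UMIs, so its 0 says nothing here. With that condition dropped, a choice made after the values were seen, 2 of 581 and 2 of 449 lymphocyte-like barcodes held Timd4 (0.169% and 0.246% on average when thinned to 3000 UMIs), at median depths of 5020.0 and 4863 UMIs. In hepatocyte-like barcodes, which were chosen without reading either gene, the thinned shares were 0.278% and 0.427%, at median depths of 5231 and 5843.5 UMIs. Clec4f, read in the same way, gave 5.30% and 4.18% of hepatocyte-like barcodes and 98.0% and 98.7% of Kupffer cells. Both genes belong to the rule, so the Kupffer shares describe what it chose. A share of the thinned kind depends on the depth it is read at, and at 1000 UMIs it was 35.3% and 37.6%.

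Kupffer cells with no Timd4 UMI, 13 and 34 of them, were set beside the 219 and 335 with 2 or more. They were shallower, with medians of 5940 and 6010.5 UMIs against 11079 and 8449. Among the 13 with suffix 1, however, the deepest cell held 31517 UMIs with 6 of Clec4f, and the next 15900 UMIs with 4. Such cells weigh most in the summed levels and mean UMIs given here. Of 1984 genes compared, 6 (0.302%) were at least 2-fold higher with Timd4 in both libraries. They were Timd4 itself, Marco, Ksr2, Fgr, P2ry12 and Tanc2. Marco stood at 34.3 CPM (9.34 to 87.7) without and 157 CPM (142 to 173) with Timd4 in suffix 1, and at 16.9 CPM (4.61 to 43.4) and 114 CPM (102 to 127) in suffix 2. In the other direction 106 genes (5.34%) were at least 2-fold lower with Timd4, and 104 of them were at least 2-fold higher in hepatocyte-like barcodes than in Kupffer cells. The cells without Timd4 held a mean of 230 and 118 Alb UMIs against 83.2 and 94.3, and the part of hepatocyte RNA in these contrasts was not tested.

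Marco, a scavenger receptor for bacteria, divided the cells. It had no UMI in 170 of 258 and 347 of 425 Kupffer cells and 2 or more in 54 and 53. Its variance over the mean was 13.3 and 9.65 as counted, where depth adds to it and Clec4f had 13.9 and 10.9. Thinned to 3000 UMIs it was 3.44 and 4.06 for Marco and 2.90 and 2.39 for Clec4f. Shares of cells with a UMI were 34.1% and 18.4%, and 20.6% and 12.1% on average when thinned to 3000 UMIs, against 0.135% and 0.473% of lymphocyte-like barcodes thinned alike. This split was chosen after the values were seen. Between Kupffer cells with 2 or more and with 0 Marco UMIs, 2 of 1918 genes (0.104%) were at least 2-fold higher in both libraries, Marco itself and Gm26917, and 0 were at least 2-fold lower. Cd5l was higher with Marco by less than that, at 5394 CPM (5218 to 5574) against 4289 (4193 to 4386) in suffix 1 and at 6405 (6192 to 6622) against 5112 (5030 to 5195) in suffix 2. Clec4f was close in both, at 2941 against 3146 CPM and 2994 against 2978 CPM.

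To find what else varied among Kupffer cells, each cell was thinned to 3000 UMIs and the variance over the mean was ranked for 446 genes. Its median was 1.21 and 1.20 (1 is what counting alone gives). Atp1b3, the beta-3 subunit of the sodium pump, led with 6.66 and 6.93, followed by Lyz2 (5.14 and 8.37), Hmox1 (4.33 and 3.93), Marco, Ctsb (4.28 and 3.40) and Cd5l (3.56 and 3.26). These genes were picked for their spread after the values were seen. Lyz2 stood at 2598 and 3089 CPM at the 90th percentile but at 19264 and 34896 CPM in its richest cell. That cell weighs heavily in the spread of Lyz2. Hmox1 ran from 105 CPM at the 10th percentile to 2264 CPM at the 90th with suffix 1, and from 0 to 1920.2 CPM with suffix 2. Ctsb and Cd5l went together over cells, with a Spearman's rho of 0.52 over 258 cells and 0.56 over 425, as did Lyz2 and Wfdc17 with 0.50 and 0.50.

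Atp1b3 fell into a low and a high group of Kupffer cells in both libraries. With suffix 1, 168 cells stood below 500 CPM, 15 between 500 and 1000, 14 between 1000 and 2000, and 61 above that. With suffix 2 the same ranges held 301, 42, 17 and 65 cells. Taking 1000 CPM as the limit, 75 cells with suffix 1 (29.1%, 23.6% to 35.0%) and 82 with suffix 2 (19.3%, 15.6% to 23.4%) were high, at 3023 and 2954 CPM, and the others stood at 238 and 237 CPM. No C1q macrophage or monocyte-like barcode reached 1000 CPM, and 3 of 536 and 4 of 402 lymphocyte-like ones did. High cells were not deeper than the others, with medians of 9725 against 10576 UMIs and 6398.5 against 7994.

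The Kupffer cells high in Atp1b3 carried more of a short list of other genes. Of 1905 genes compared, 7 (0.367%) were at least 2-fold higher in them in both libraries, Atp1b3 included, and 0 were at least 2-fold lower. The other 6 were Adgrl3, Resf1, Tshz2, Colec12, P2rx7 and Tgfbi. Adgrl3, an adhesion receptor, stood at 477 CPM in high cells and 125 CPM in the others with suffix 1, and at 335 and 78.8 CPM with suffix 2, which is 3.81-fold and 4.26-fold. Colec12, a scavenger receptor of the collectin family, stood at 165 against 65.0 CPM and 212 against 66.9 CPM. P2rx7, the ATP-gated channel that triggers the inflammasome, stood at 121 against 55.8 CPM and 167 against 57.0 CPM. Identity genes differed less, with Clec4f at 3233 against 3006 CPM and 2675 against 3017 CPM, and Cd5l at 4641 against 4617 CPM and 5385 against 5306 CPM. The class II gene H2-Eb1 was lower in high cells by 1.53-fold and 1.71-fold. Because the split and its genes were read from the same cells, these values describe them and carry no test.

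**Figure D4:**
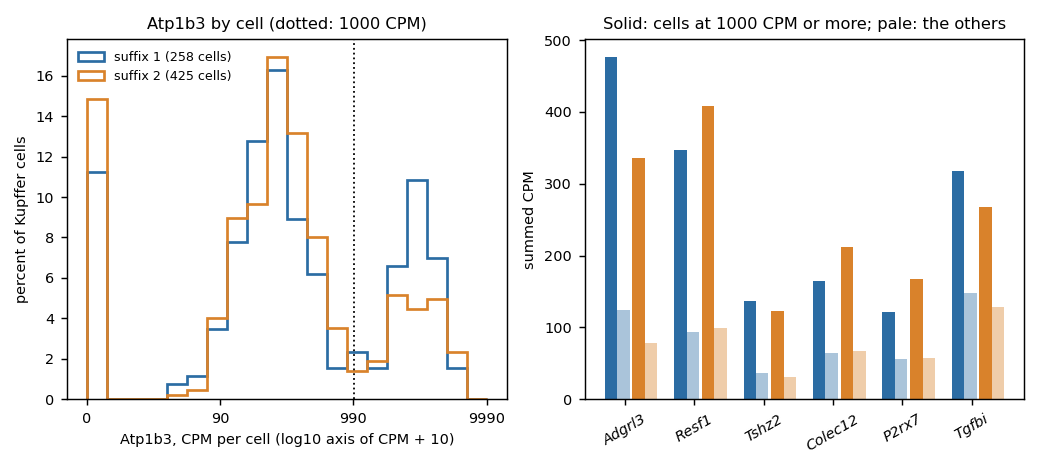
Left, percent of Kupffer cells by Atp1b3 level, in CPM on a log10 axis of CPM + 10, for 258 cells of suffix 1 (blue) and 425 of suffix 2 (orange), with 1000 CPM dotted. Right, summed CPM of 6 genes in cells at or above that limit (solid bars) and in the other Kupffer cells (pale bars), where each gene is at least 2-fold higher in the solid bars of both libraries.

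Some Kupffer cells carried markers of other cells. Endothelial markers, at least 5 of 8 with 2 or more UMIs, were found in 16 cells with suffix 1 (6.202%, 3.59% to 9.88%) and 32 with suffix 2 (7.53%, 5.21% to 10.5%), and these held 60.9% and 62.7% of the endothelial-marker UMIs of all Kupffer cells. Their median depth was 15131.5 and 12213 UMIs against 10356 and 7496 in the rest, and Clec4f stood at 1858 against 3176 CPM and 2528 against 3012 CPM. Without these cells Kdr fell to 2.69 and 4.60 CPM from 60.6 and 67.1, while Stab2, one of the genes that endothelium and macrophages share, was still at 124 and 143 CPM and Mrc1 at 1029 and 1219 CPM. Markers of hepatocytes were present in all 683 Kupffer cells, at 16496 and 22533 CPM in sum, and the lymphocyte-like barcodes held 21859 and 24499 CPM of them. Erythroid markers stood at 213 and 1893 CPM, against 2800 and 3833 CPM in lymphocyte-like barcodes. No erythroid marker reached 2 UMIs in 131 of 258 and 362 of 425 Kupffer cells, so the higher sum with suffix 2 rested on a minority of its cells. Neutrophil, biliary and platelet markers reached 2 UMIs of a gene in at most 2 Kupffer cells of either library, and T or NK markers in at most 4. No stellate marker reached 2 UMIs in 221 and 383 Kupffer cells, no B cell marker in 221 and 369, and no dendritic marker in 214 and 376, whereas monocyte markers, some of which macrophages share, did in all but 8 and 6.

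Cells with cell cycle genes were few. At least 5 of 11 cell cycle genes were found in 20 Kupffer cells with suffix 1 (7.75%, 4.80% to 11.7%) and in 9 with suffix 2 (2.12%, 0.973% to 3.98%), at unequal depths that this share depends on. These cells carried 73.0% and 37.1% of the UMIs of the list. Mki67 stood at 385 and 306 CPM in them and at 6.43 and 5.04 CPM in the other Kupffer cells. Ccr2 stood at 120 CPM (86.2 to 162) and 0 CPM in the cells with cell cycle genes and at 9.65 and 6.16 CPM in the others. Clec4f, Timd4 and C1qa were lower in the same cells, with Clec4f at 1692 against 3262 CPM and 1641 against 2990 CPM, and C1qa at 1487 against 2836 CPM and 1629 against 2785 CPM. Whether they hold a second cell was not tested. In lymphocyte-like barcodes the order of the libraries was the other way round, with 2.43% and 4.98% cycling.

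The Kupffer cells of the libraries were then set side by side. Of 1964 genes at 100 CPM or more in either library, 19 (0.967%) differed at least 2-fold, 8 higher with suffix 1 and 11 with suffix 2. After the mean lymphocyte-like UMIs of each library were subtracted once per Kupffer cell, 69 differed, 65 higher with suffix 1 and 4 with suffix 2. That step took a larger part of the shallower suffix 2 cells. Median depths were 10463 and 7774 UMIs in Kupffer cells and 4943.5 and 4796 in lymphocyte-like barcodes. Levels were not rescaled afterwards, so this turn in direction cannot be told from the step itself. As counted, 545 genes also stood at least 3 times above the lymphocyte-like level of the same library. Of these, 4 differed at least 2-fold (0.734%), 2 in each direction. Those 4 were Ifi202b, Tor3a, Retnla and Lepr. Under the other settings tried, Ifi202b and Lepr stayed more than 2-fold apart. Tor3a and Retnla did not in every setting, with log2 ratios from 0.89 to 1.24 and from -7.19 to -0.05. No gene of the lists that could be compared passed 2-fold. Listed genes below 100 CPM in both libraries, such as Spp1 and every gene of the cell cycle list, were not compared.

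Ifi202b, an interferon-induced gene, separated the libraries completely. With suffix 1 it stood at 108 CPM (96.4 to 121), with 307 UMIs in 162 of 258 Kupffer cells (62.8%, 56.6% to 68.7%). The suffix 1 level was 132-fold above 0.821 CPM, which is a fixed floor of 3 UMIs over the suffix 2 Kupffer cells. With suffix 2 Ifi202b had 0 UMIs in 425 Kupffer cells. The same held outside Kupffer cells, since 672 UMIs were found in all barcodes with suffix 1 and 0 in all barcodes with suffix 2. Monocyte-like barcodes with suffix 1 carried it at 189.7 CPM. The other genes named as higher with suffix 1 were Tor3a at 134 against 63.8 CPM, Ifit2 at 122 against 61.1 CPM, Oasl2, Stat2, Oas3, Adgrl3, Ccnd1, Gm35154 and A330040F15Rik.

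Interferon genes leaned the same way in sum, though 2 of 7 tested were at least 4-fold above other barcodes, against 18.8% of all tested genes. Of 10 that could be compared, 8 were higher with suffix 1 by any amount, as were 1083 of all 1964 genes, with a median log2 ratio of 0.41 where all genes had 0.03, and 0 of the 10 reached 2-fold. The sum over the 17 measured genes of the list was 4452 CPM with suffix 1 and 3745 CPM with suffix 2 in Kupffer cells. In lymphocyte-like barcodes it was 1873 and 1421 CPM, so the sum was higher with suffix 1 there as well. Oasl2 stood at 161 CPM (146 to 176) and 90.6 CPM (81.1 to 101), and Ifitm3 was level at 1309 and 1312 CPM. Adgrl3, at 221 and 122 CPM over all Kupffer cells, was also one of the genes higher in the cells high in Atp1b3, and it was higher with suffix 1 within both the high and the other cells.

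Lepr, the leptin receptor, was higher with suffix 2. It was counted at 26.1 CPM (20.5 to 32.7) in suffix 1 Kupffer cells and 142 CPM (130 to 154) in suffix 2 Kupffer cells, a 5.25-fold difference, with a UMI in 49 of 258 and 217 of 425 Kupffer cells. Thinned to 3000 UMIs, 7.29% and 30.5% of Kupffer cells held it on average. Lymphocyte-like barcodes held 0 and 3.30 CPM, and endothelial-like ones 27.7 and 40.9 CPM. Retnla came out as higher with suffix 2 through 1 cell, which held 374 of its 375 UMIs. Zdhhc14, a palmitoyl transferase, stood at 296 and 560 CPM, Abca1, the cholesterol exporter that LXR controls, at 417 CPM (393 to 441) and 693 CPM (666 to 720.3), Cd14, the co-receptor for endotoxin, at 63.1 and 115 CPM, and Pde7b at 1128 and 1691 CPM. The log2 ratios of suffix 1 to suffix 2 of Ext1, Uvrag, Jdp2 and Rcan1 ran from -0.78 to -0.60. The part that genotype, animal, digestion or lane plays in any of these differences cannot be told apart.

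**Figure D5:**
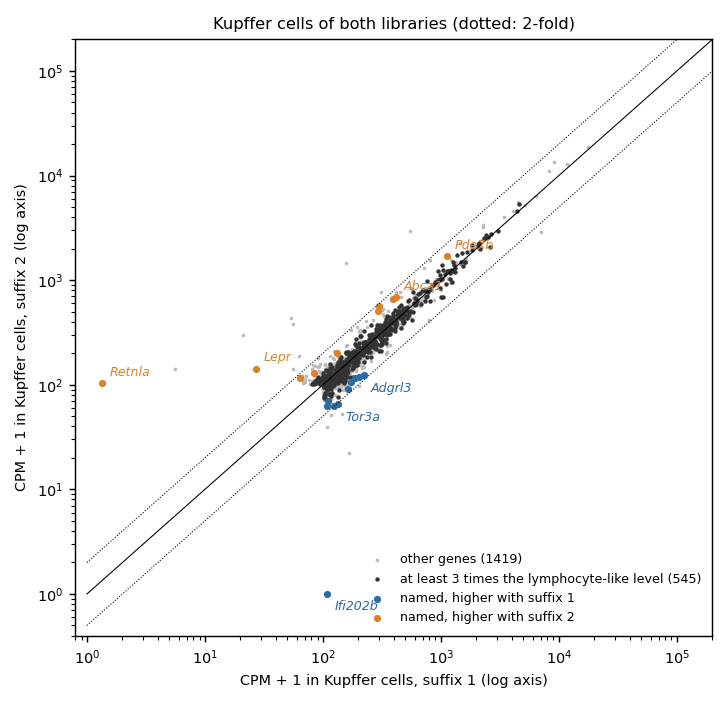
CPM + 1 of 1964 genes in Kupffer cells of suffix 1 (x) and suffix 2 (y) on log axes, with the 10 named genes higher with suffix 1 in blue, the 10 higher with suffix 2 in orange, genes at least 3 times the lymphocyte-like level in black, equality as a solid line and 2-fold as dotted lines. Most genes hug the solid line, while Ifi202b lies at 0 CPM with suffix 2 and Lepr and Retnla lie above the upper dotted line.

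The genes that the study turned on were also read in Kupffer cells. Cebpa, a factor of hepatocytes and of myeloid cells, was counted at 138 CPM (124 to 152) and 169 CPM (156 to 183). A Cebpa UMI was found in 69.8% and 70.4% of Kupffer cells, at median depths of 10463 and 7774 UMIs, and in 2.80% and 10.2% of lymphocyte-like barcodes, at 4943.5 and 4796 UMIs. Thinned to 3000 UMIs, the shares were 33.3% and 39.9% of Kupffer cells and 1.27% and 4.33% of lymphocyte-like barcodes. In hepatocyte-like barcodes it stood at 1.15 and 108 CPM, and no library was assigned to a genotype from that. The log2 ratio of suffix 1 to suffix 2 in Kupffer cells was -0.29. Spp1, the gene of osteopontin, stood at 79.6 and 10.7 CPM in Kupffer cells, at 294 and 8.43 CPM in lymphocyte-like barcodes and at 1158 and 134 CPM in hepatocyte-like ones. Thinned to 3000 UMIs, 20.7% and 3.59% of Kupffer cells and 27.0% and 2.77% of lymphocyte-like barcodes held a Spp1 UMI. The Kupffer share was thus the lower of the pair with suffix 1 and the higher with suffix 2, and the source of these UMIs was not tested.

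Receptors for osteopontin were present. Cd44 stood at 782 and 812 CPM with a UMI in 84.5% and 86.6% of Kupffer cells and 33.7% and 33.0% of lymphocyte-like barcodes, which also make it, thinned to 3000 UMIs, and was 10.4-fold and 8.46-fold above the other barcodes. Itga9, an integrin chain that binds cleaved osteopontin, stood at 757 and 978 CPM (26.0-fold and 23.2-fold). Itgav stood at 238 and 208 CPM and Itgb3, its platelet partner, at 7.75 and 5.20 CPM. Timp1 was near absent at 0.352 and 0.548 CPM, whereas Timp2 stood at 126 and 137 CPM. Of the 14 genes of this list that could be compared with other barcodes, 6 were at least 4-fold higher in Kupffer cells and 1, Spp1, was lower. Of all tested genes 18.8% were higher and 3.88% lower by that much.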

How the data were processed

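Whole-number UMI counts per gene and barcode were deposited by the authors as 1 joined 10x matrix. The submitters' processing notes name Cell Ranger 7.1.0, STAR 2.7.2a, bcl2fastq 2.20.0 and mm10. The sources used here do not give the cell calling, the use of intronic reads or any depth equalising. Kupffer cells, lists and classes were chosen with earlier results of these data known. UMIs were summed per class and library and scaled to CPM. Genes were compared from 100 CPM with 3 UMIs added, at 4-fold to other barcodes and 2-fold between suffixes, and no test was run. Shares were thinned to 3000 UMIs. Scrublet (scanpy 1.11.5) marked 4 of 2977 barcodes (0.134%) and 10 of 2538 (0.394%), 0 and 2 of them Kupffer cells, and none was left out, so doublets can remain. Named genes were the listed genes, the 10 largest ratios to other barcodes without the rule's genes, and the 10 furthest each way between suffixes among genes at 3 times the lymphocyte-like level, without mitochondrial, ribosomal and other cells' marker genes. The splits by Marco, Atp1b3, cell cycle and endothelial markers were added later. Clec7a and Mx1 were not analysed here. Gene positions came from GENCODE M21 on GRCm38. Python 3.11.15, numpy 2.4.6, scipy 1.17.1 and pandas 2.3.3 were used.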

Additional observations from a re-analysis of the deposited data

Results flagged for a closer look

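Barcodes that met the rest of the Kupffer rule but exceeded 25% mitochondrial UMIs, 37 with suffix 1 and 29 with suffix 2, drew attention because they lie outside all comparisons. They were chosen by their UMIs of the C1q genes, Clec4f and Timd4, so their Clec4f level describes what was chosen. Clec4f stood at 1148 CPM in those with suffix 1 and at 1215 CPM in those with suffix 2, and Vsig4 at 725 and 970 CPM. Their median mitochondrial share was 46.5% and 38.7%, which lowers the CPM of every other gene.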

How the results depend on the processing

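Of 114 recomputed numbers of Kupffer cells, Timd4 shares and numbers of genes, 102 moved by less than 1.5 times or the counting interval and 12 moved. Of the levels of listed genes, 7892 stayed within the counting interval and 1424 moved. Without barcodes that carried markers of other cells, 162 and 271 Kupffer cells were left. Timd4 was seen in 94.96% and 92.0% of Kupffer cells as counted and in 35.3% and 37.6% at 1000 UMIs. Genes at least 4-fold higher than in other barcodes numbered 751 from 20 CPM and 13757 with no minimum, where 3 added UMIs set the ratio of a gene near 0. Genes at least 2-fold apart between the suffixes numbered 35 with a C1q minimum of 5 UMIs, 123 from 20 CPM and 1328 with no minimum. They numbered 69 after lymphocyte-like UMIs were subtracted, 65 higher with suffix 1 and 4 with suffix 2, against 8 and 11 as counted. That subtraction took a larger part of the shallower suffix 2 cells, without rescaling, so its count does not describe the cells alone. The cause of these shifts was not tested. The C1q minimum of 5 added 1 and 8 barcodes, and those with suffix 2 held 193727 UMIs. Leaving out endothelial-marker cells, repeated barcode sequences or each gene's richest cell was chosen after seeing the data. Without its richest cell, Retnla had a log2 ratio of -0.05. No paired analysis was possible because each sample has 1 library and no label ties a library to a sample. Depth, free RNA and remaining doublets limit low genes, and no value here separates genotype, mice and lanes.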

Other observations

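Barcodes with Kupffer genes and a UMI of Cd3e or Cd79a, which the rule left out, numbered 18 with suffix 1 and 16 with suffix 2. Clec4f stood at 2616 CPM (2402 to 2843) and 2085 CPM (1900.2 to 2283) in them, against 3068 and 2959 CPM in Kupffer cells. Their median depth was 11035.5 and 15395.5 UMIs.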
